A study of Mus musculus with 12 samples.

Results

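The 10 genes described here encode transcription factors that mark striatal neurons: Bcl11b, Foxp1, Foxp2, Meis2, Isl1, Ebf1, Ikzf1, Zfp503, Rarb and Rxrg. They were taken by symbol from a table of 23282 gene rows, and all 10 had a row in each of the 12 RNAseq libraries. The question was whether these regulators of neuronal identity fall along with striatal effector genes, such as those for dopamine receptors, signalling proteins and neuropeptides, in a mouse model of Huntington's disease (HD).

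The HD mice were R6/2 mice, a line that carries a transgene of exon 1 of human HTT with an expanded CAG repeat under the human HTT promoter, in addition to the mouse's own Htt genes. Littermates without the transgene were the wild-type (WT) mice. Striatum and cortex were taken at 13 weeks, which the submitters call post-symptom, and at 8 weeks, which they call pre-symptom. Each HD group (stage by region) had 2 libraries and each WT group (age by region) had 1. The labels do not say whether libraries of a group came from separate mice, or whether a striatum and a cortex came from the same mouse, so p-values measure the spread between these libraries, which may be technical.

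Most neurons of the striatum are GABAergic medium spiny neurons, which project either to the substantia nigra, with dopamine receptor D1, or to the globus pallidus, with dopamine receptor D2. Their identity is set in the embryo by transcription factors, several of which stay on in the adult neuron and maintain its genes. Bcl11b and Foxp1 are shared by both kinds of medium spiny neuron, Isl1, Ebf1 and Zfp503 belong to the development of the nigral pathway, and Ikzf1 to that of the pallidal pathway. Rarb and Rxrg are receptors through which retinoic acid acts on striatal genes.

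Libraries held 8814386 to 12091201 counts, and values below are CPM (counts scaled to library size) with TMM, a factor that sets most genes equal between libraries. These counts come from tags at the 3′ ends of transcripts, so no length correction applies. Replicate 2 of the pre-symptomatic HD striatum stood apart from its partner. Oligodendrocyte markers summed to 21364 CPM in it and to 3474 CPM in replicate 1 (10 of 10 were higher), 4 thalamic markers summed to 802 against 44.3 CPM, and 4 choroid plexus markers to 955 against 25.1 CPM. Effector genes of medium spiny neurons summed to 4179 against 11792 CPM, and all 18 that were detected were lower. Results that rest on this library are given with and without it. Of 20 effector genes, Drd2 and Gpr6, markers of the pallidal neurons, had between 0 and 4 counts in every library, the WT striatum included, so they carried no information here. The precursor of ribosomal RNA (Rn45s) took 10.5% to 15.2% of the counts in HD libraries and 4.32% to 5.62% in WT libraries. By Xist and Y-linked counts, replicate 1 of each HD group was male and replicate 2 female, and the WT libraries were female at 13 weeks and male at 8 weeks. The part of Rn45s in the results was not tested. A fit with sex as a term is given where it changed a call of one of the 10 regulators.

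Compared with cortex, 9 of the 10 regulators were higher in striatum, in a fit of all 12 libraries by the quasi-likelihood test of edgeR, adjusted over all genes (Benjamini-Hochberg) at a threshold of 0.05. Of the 14706 genes tested, 20.6% passed and 8.51% were higher in striatum. The effectors were higher for 18 of 18 tested, with a median log2 difference of 3.50, against 2.50 for the regulators and 0.01 for all genes. The regulators and the effectors thus followed the region labels.

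Isl1, a LIM homeodomain factor of nigral and cholinergic neurons, was the most restricted of the 10, with 177 to 367 counts in each striatal library and 0 to 3 counts in each cortical library. Rxrg was 31.99 times higher in striatum (95% interval of the log2 difference 3.99 to 6.01, adjusted p = 6.03e-05). Rarb followed, at 9.68 times the cortical level. Ebf1, Zfp503, Foxp2, Bcl11b and Meis2 lay between 4.25 and 6.04 times. Foxp1, which cortical projection neurons of several layers also express, was 1.97 times higher (adjusted p = 0.0109), and it was the 1 gene of these 9 whose striatal and cortical ranges overlapped. The Foxp1 ranges were 513 to 1556 CPM in striatum and 403 to 578 CPM in cortex. Ikzf1, a zinc finger factor, did not pass (log2 difference 0.63, SE 0.38, adjusted p = 0.285), and its range of 2.13 to 8.20 CPM in striatum overlapped that of 1.16 to 3.27 CPM in cortex. The 8 genes without overlap compare with 2.64% of all genes tested whose 6 striatal libraries lay above all 6 cortical ones. These 9 calls also held under each of the 17 other settings tried.

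**Figure D1:**
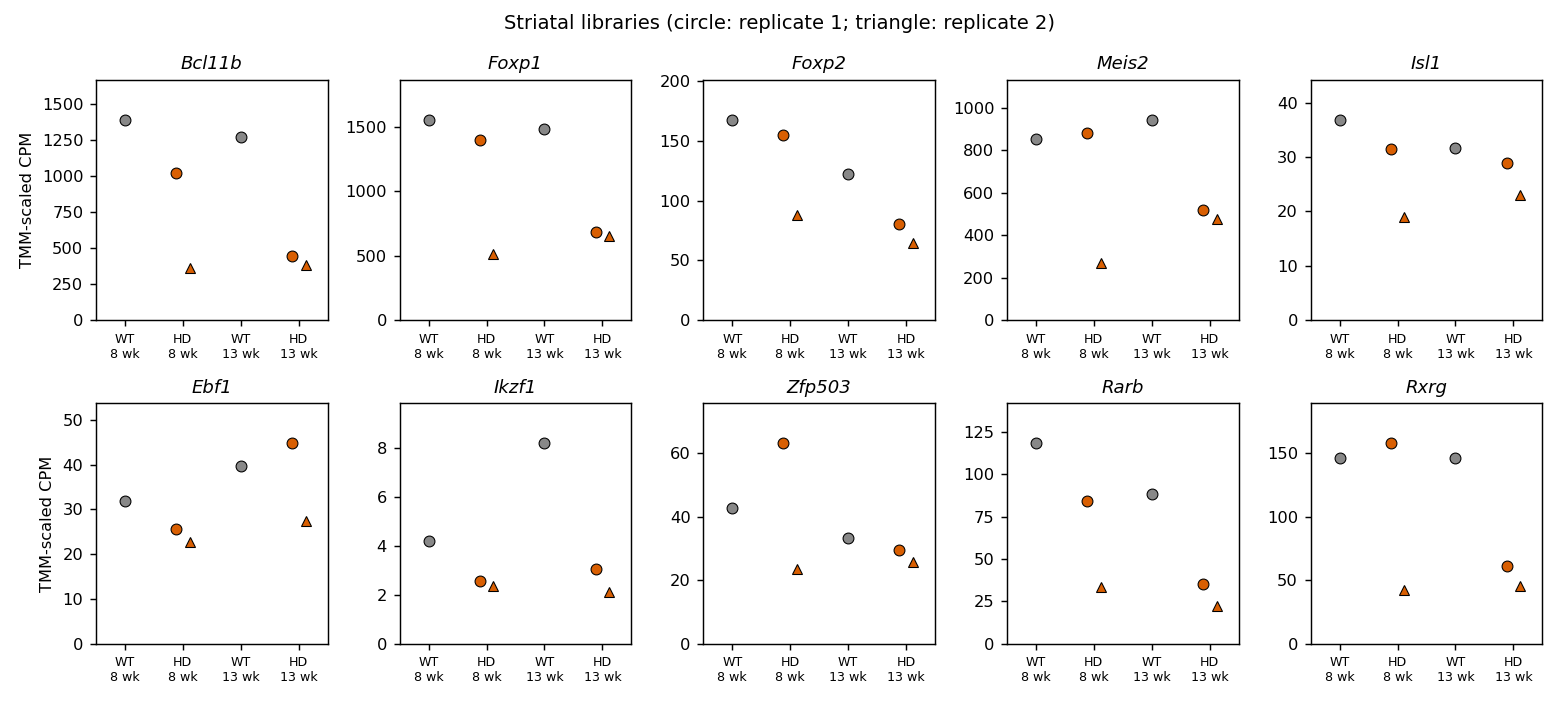
TMM-scaled CPM (y axis, from 0) of the 10 regulators in the 6 striatal libraries, by genotype and age (x axis). Circles are replicate 1, triangles replicate 2, grey WT and orange HD. At 13 weeks 9 of the 10 genes had both HD libraries below the WT library, and replicate 2 of the 8-week HD striatum lay below replicate 1 for all 10.

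Bcl11b (CTIP2), a zinc finger factor needed for medium spiny neurons to mature, was at 1268 CPM in the WT striatum at 13 weeks and at 446 and 379 CPM in the post-symptomatic HD striatum. In the younger mice it was at 1388 CPM in WT and at 1016 and 358 CPM in HD. Both HD libraries were below WT at either age, and the lowest of the 6 was replicate 2 at 8 weeks. The post-symptomatic mean was 32.5% of WT.

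Foxp1, a forkhead factor of medium spiny neurons, was at 1482 CPM in the 13-week WT striatum and at 686 and 655 CPM in HD. At 8 weeks it was at 1556 CPM in WT and at 1399 and 513 CPM in HD. Replicate 1 at 8 weeks was thus close to WT, whereas both 13-week HD libraries were near 45.2% of it on average.

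Foxp2, the related factor linked to vocal learning and speech, was at 123 CPM in the 13-week WT striatum and at 80.5 and 64.3 CPM in HD, against 168 CPM in WT and 155 and 88.3 CPM in HD at 8 weeks. Both 13-week HD libraries lay below both 8-week HD libraries, which no other regulator showed in striatum. Over all genes, 19.3% had such an order downward.

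Meis2, a homeodomain factor of the TALE class, was at 944 CPM in the 13-week WT striatum and at 519 and 474 CPM in HD. At 8 weeks it was at 854 CPM in WT and at 883 and 271 CPM in HD. The 13-week HD mean was 52.6% of WT, and replicate 1 at 8 weeks was above its WT library.

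Of the regulators of the nigral pathway, Isl1 was at 31.7 CPM in the 13-week WT striatum and at 28.8 and 22.9 CPM in HD, and at 8 weeks at 36.8 CPM in WT and at 31.5 and 19.0 CPM in HD. Ebf1, a helix-loop-helix factor, was at 39.8 CPM in WT and at 44.7 and 27.4 CPM in HD at 13 weeks, and at 31.8 CPM in WT and 25.5 and 22.8 CPM in HD at 8 weeks. The 13-week HD libraries of Ebf1 lay on either side of WT and above both 8-week HD libraries. Zfp503 (Nolz1), a zinc finger repressor, was at 33.4 CPM in WT and at 29.6 and 25.6 CPM in HD at 13 weeks. At 8 weeks Zfp503 was at 42.7 CPM in WT and at 63.1 and 23.6 CPM in HD, so that its HD libraries lay on either side of WT. The 13-week HD means were 81.8% of WT for Isl1, 90.7% for Ebf1 and 82.7% for Zfp503, above the 59.0% of Foxp2, the next in order. The 8-week HD means were 68.6%, 75.9% and 102% of WT, and there Isl1 lay below Foxp2 at 72.6%. The difference of these 3 genes from the other regulators was not tested.

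Ikzf1 (Ikaros), a factor of pallidal neurons that blood cells also express, was low throughout. It was at 8.20 CPM (86 counts) in the 13-week WT striatum and at 3.07 and 2.13 CPM (33 and 20 counts) in HD. Its 8-week values were 4.22 CPM in WT and 2.57 and 2.36 CPM in HD. All 4 HD libraries were below both WT libraries, on few counts.

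Among the retinoid receptors, Rarb was at 88.0 CPM in the 13-week WT striatum and at 35.1 and 22.5 CPM in HD, and at 8 weeks at 118 CPM in WT and at 83.9 and 33.3 CPM in HD. Rxrg was at 146 CPM in the WT striatum at either age. In HD it was at 61.3 and 45.5 CPM at 13 weeks and at 158 and 42.1 CPM at 8 weeks. The 13-week HD means were 32.7% of WT for Rarb and 36.5% for Rxrg, and both genes had all 13-week HD libraries below WT.

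Rarb is itself known to be induced by retinoic acid through a repeat in its promoter, and the sequences before the RefSeq starts of the retinoid receptors are shown for that reason (GRCm38.p6, 250 bases each). The Rarb window lies at chr14:16575477-16575726 on the minus strand, inside the span of the gene (chr14:16430839-16819156). The Rxrg window is the second of that gene, at chr1:167618015-167618264 on the plus strand, also inside the gene (chr1:167598384-167639623). Capitals in Rarb mark a direct repeat of the half-site AGGTCA with 5 bases between the copies, where A or G was allowed at the first base and G or T at the third. In Rxrg they mark AGTTCA, the second copy of the Rarb repeat, and an AGGTCA that lies further on is left in lower case. Both are read 5′ to 3′ on the strand of the gene.
Rarb: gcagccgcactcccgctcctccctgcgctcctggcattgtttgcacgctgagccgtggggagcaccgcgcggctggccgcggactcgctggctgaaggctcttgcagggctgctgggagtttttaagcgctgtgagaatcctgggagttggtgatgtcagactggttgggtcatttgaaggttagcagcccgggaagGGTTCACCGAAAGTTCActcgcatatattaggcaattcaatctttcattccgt
Rxrg: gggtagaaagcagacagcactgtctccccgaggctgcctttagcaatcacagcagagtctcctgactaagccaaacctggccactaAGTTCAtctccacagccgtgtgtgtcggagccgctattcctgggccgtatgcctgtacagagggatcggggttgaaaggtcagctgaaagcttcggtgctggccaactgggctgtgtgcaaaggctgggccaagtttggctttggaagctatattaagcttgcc
Of the 10 regulators, 9 had a RefSeq promoter entry, with 14 windows in all. On either strand, the repeat spaced by 5 was found in 1 of these 14 windows and in 0.0883% of all 32851 promoter windows. AGTTCA, which the repeat can contain, was in 3 of the 14 (Rarb, Rxrg, Ikzf1) and in 11.8% of all windows. The forkhead motif TGTTTAC was in 0 of the 14 and in 3.17% of all windows, and the MEIS motif TGACAG was in 1, of Foxp1, and in 15.9% of all. A match describes the letters only, and no binding was measured here.

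For HD against WT at 13 weeks in striatum, 0 of the 10 regulators passed by edgeR's quasi-likelihood test, although all 10 estimates were below 0. Of 15337 genes tested, 0.724% passed. The regulators' log2 fold changes ran from -1.65 to -0.14 with a median of -1.04, against 0.02 for all genes. At an unadjusted p under 0.05, 4 of them passed (Bcl11b, Rarb, Ikzf1 and Foxp1). The largest, with 95% intervals, were Ikzf1 at -1.65 (-3.10 to -0.20, adjusted p = 0.281), Bcl11b at -1.62 (-2.78 to -0.46, adjusted p = 0.202), Rarb at -1.61 (-2.85 to -0.38, adjusted p = 0.227) and Rxrg at -1.45 (-3.03 to 0.12, adjusted p = 0.386). Foxp1 was at -1.15 (SE 0.46), Meis2 at -0.93 (SE 0.59) and Foxp2 at -0.76 (SE 0.34). Isl1, Zfp503 and Ebf1 were at -0.29, -0.27 and -0.14. Their intervals spanned 0, the widest of these 3 from -1.39 to 0.84 for Zfp503. So did those of Rxrg, Meis2 (-2.32 to 0.47) and Foxp2 (-1.53 to 0.0049). In bulk tissue, fewer neurons of a type and less RNA in each neuron cannot be told apart. Markers of other cells also differed between these libraries. Pan-neuronal markers summed to 1896 and 2019 CPM in HD and 2753 CPM in WT (4 of 5 estimates below 0, median -0.41), and cholinergic interneuron markers to 36.7 and 42.5 CPM against 152 CPM (3 of 4 below 0, median -1.87). Thalamic markers summed to 71.5 and 72.1 CPM in HD and 38.3 CPM in WT (0 of 4 below 0), and oligodendrocyte markers to 4513 and 7505 CPM against 5327 CPM (1 of 10 below 0). The part of these cells in the values of the regulators was not tested.

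The calls at 13 weeks turned on the pair of pre-symptomatic HD striatal libraries, which enter the fit's estimate of spread. Without replicate 2 of that group the log2 fold changes at 13 weeks stayed within 0.01, and 6 of the 10 passed, against 9.63% of 15262 genes. Bcl11b (adjusted p = 2.69e-05), Foxp1 (adjusted p = 0.000138), Rxrg (adjusted p = 0.00125), Rarb (adjusted p = 0.00401), Meis2 (adjusted p = 0.00681) and Foxp2 (adjusted p = 0.0437) were lower by edgeR. Without replicate 1 instead, the same 6 genes passed, against 9.52% of 15289 genes. Isl1, Ebf1, Zfp503 and Ikzf1 did not pass under either. Both fits compared the same 13-week libraries and took the spread from the same remaining HD pairs. Their agreement was thus set by the design and is not a second test. DESeq2 on all libraries called Bcl11b (adjusted p = 0.0088) and Rarb (adjusted p = 0.047), against 3.89% of genes.

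**Figure D2:**
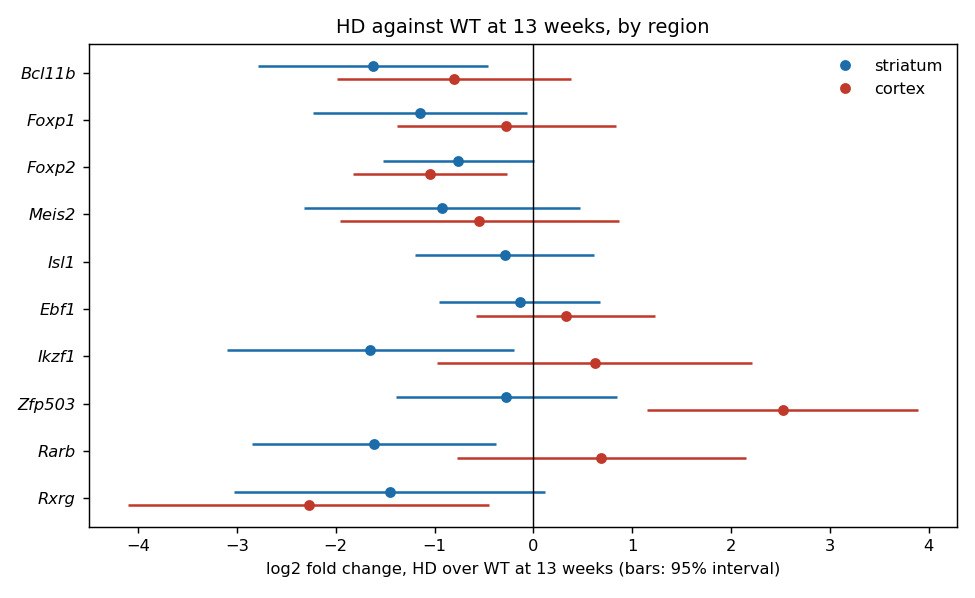
Log2 fold change of HD over WT at 13 weeks (x axis) for each regulator (y axis) in striatum (blue) and cortex (red), with 95% intervals from edgeR's fit of all 12 libraries. All 10 striatal estimates lay below 0, and in cortex Zfp503 lay at 2.52 and Rxrg at -2.27. Isl1 in cortex is left out, as it had 0 to 3 counts there.

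Beside them, effector genes of the same neurons were further below WT at 13 weeks. All 18 tested had estimates below 0 (median -2.46, range -4.63 to -0.60), and 3 passed by edgeR. These were Scn4b, a sodium channel subunit (log2 fold change -4.63, adjusted p = 0.028), Rasgrp2, an exchange factor for Rap (-3.28, adjusted p = 0.0366), and Adora2a, an adenosine receptor of pallidal neurons (-3.17, adjusted p = 0.0449). The effectors with the highest level in striatum did not pass by edgeR. Penk, the enkephalin precursor, was at -3.26, Pde1b, a phosphodiesterase, at -2.54 and Ppp1r1b (DARPP-32) at -2.42. Drd1 was at -2.42 and Gnal, a G protein subunit, at -0.60. Without replicate 2 of the pre-symptomatic HD striatum, 17 of 18 effectors were lower, and DESeq2 on all libraries called 15 of 18.

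As a percentage of the WT library of the same age, the median regulator was at 50.6% and 47.2% in the 13-week HD striatal libraries, and the median effector at 17.6% and 18.4%. In the 8-week HD libraries the median regulator was at 87.7% and 42.3%, and the median effector at 92.6% and 32.7%, the lower value of each pair being that of replicate 2. Both HD libraries were below WT for 9 of 10 regulators and 18 of 18 effectors at 13 weeks, against 37.8% of all genes tested, and for 7 of 10 regulators and 10 of 18 effectors at 8 weeks, against 34.3%.

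Summed over genes, the regulators were at 4164 CPM in the 13-week WT striatum and at 1933 and 1719 CPM in HD, and the effectors at 12838 CPM in WT and at 2458 and 2644 CPM in HD. The summed regulators equalled 78.6% and 65.0% of the summed effectors in the 13-week HD striatum. They equalled 32.4% in the WT striatum of that age, 32.4% and 32.9% in the 8-week HD striatum and 37.1% in the 8-week WT striatum. The 13-week HD libraries thus stood apart from the other 4, replicate 2 at 8 weeks included. This ratio was chosen after the values were seen and carries no test.

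**Figure D3:**
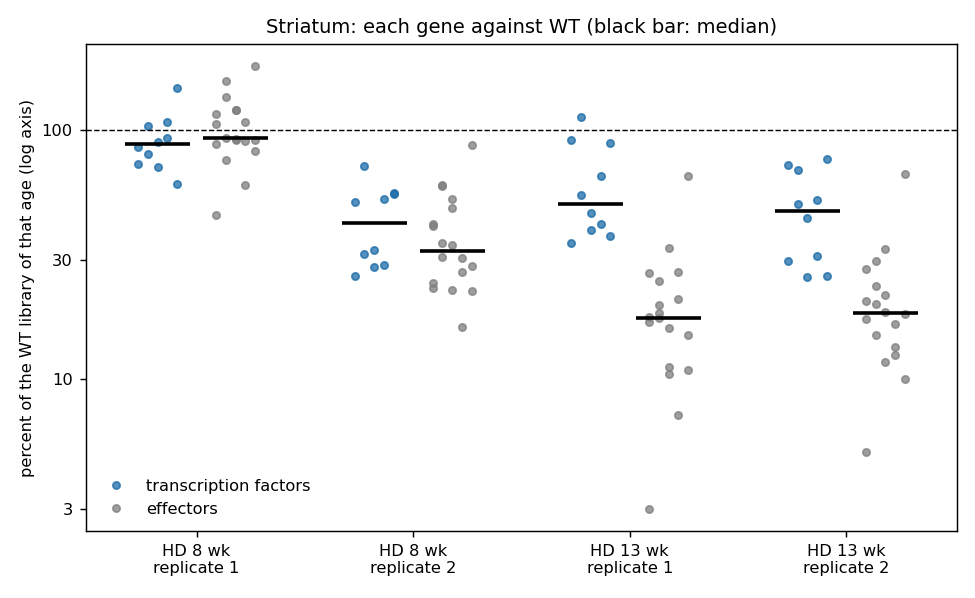
Level of each regulator (blue) and effector (grey) in each HD striatal library (x axis) as a percentage of the WT library of that age (y axis, log scale), with the median as a black bar. Genes with under 10 counts in WT are left out, which removes Drd2 and Gpr6. At 13 weeks the median regulator lay at 50.6% and 47.2% and the median effector at 17.6% and 18.4%.

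From the pre-symptomatic to the post-symptomatic HD striatum, 0 of 10 regulators passed by edgeR, against 0.160% of 14392 genes. At an unadjusted p under 0.05 it was 1 of them, Foxp2 at -0.71 (SE 0.28, adjusted p = 0.337), and DESeq2 also called 0, against 3.23% of genes. The regulators' median was -0.54 (range -0.98 to 0.61) and that of the effectors -1.77. Of the 18 effectors, 0 passed by edgeR, 16 had an unadjusted p under 0.05 and DESeq2 called 13. Without replicate 2 of the pre-symptomatic striatum, 7 of 10 regulators passed, all lower, where 7.02% of 15009 genes passed and 5.32% were lower. Their log2 fold changes were -1.55 for Rxrg, -1.53 for Rarb, -1.29 for Bcl11b, -1.18 for Zfp503, -1.09 for Foxp2, -1.05 for Foxp1 and -0.82 for Meis2, with adjusted p from 0.000283 to 0.0196 by edgeR. These values compare both post-symptomatic libraries with a single pre-symptomatic one. Without replicate 1 instead, 1 of the 10 passed, against 7.20% of 15037 genes, and it was higher: Meis2, at 0.89 (adjusted p = 0.022). Bcl11b (0.22), Foxp1 (0.40), Rxrg (0.36) and Zfp503 (0.24) also had estimates above 0 without it, uncalled. Which of these libraries was kept thus set the direction for these genes and Meis2, and the number of regulators called. For the effectors the median kept its direction, at -2.30 without replicate 2 and -0.88 without replicate 1. The estimates of single effectors in these fits are not reported here. Both 13-week HD libraries lay below both 8-week ones for 16 of 18 effectors and 1 of 10 regulators, against 19.3% of all genes.

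At 8 weeks in striatum, 0 of 10 regulators passed against WT (0.228% of 15337 genes by edgeR), nor did any at an unadjusted p under 0.05 or by DESeq2, which called 2.12% of genes. The median was -0.56 with both HD libraries and -0.19 without replicate 2, when again 0 passed, against 2.10% of 15262 genes. Without it, the widest distances from WT were Ikzf1 at -0.71 (SE 0.82), Zfp503 at 0.56 (SE 0.31) and Rarb at -0.49 (SE 0.36). Against WT, replicate 2 alone gave 6 genes that passed by edgeR, against 13.0% of 15289 genes. These were Bcl11b, Foxp1, Foxp2, Meis2, Rarb and Rxrg, at -1.95 to -0.93. That comparison was of 1 HD library with 1 WT library, and its estimate of spread came from other groups.

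Within the pre-symptomatic pair, replicate 2 was below replicate 1 for all 10 regulators, with a median log2 ratio of -1.36. That of the effectors was -1.37 over all 20 genes, which include Drd2 and Gpr6 at 0 CPM in both libraries. Of the 18 other striatal regulators, 12 were lower in replicate 2 and 6 higher (median log2 ratio -0.43). Six3, a homeobox gene of the striatum, was at 1016 CPM in replicate 1 and 978 CPM in replicate 2. It was at 785 and 768 CPM in the 13-week HD striatum and at 920 and 928 CPM in WT.

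In cortex the estimates of the regulators lay on both sides of 0. For HD against WT at 13 weeks, 0 of 10 passed by edgeR, against 0.111% of 15337 genes, and their median was -0.41 (range -2.27 to 2.52). At an unadjusted p under 0.05 there were 3, Zfp503, Foxp2 and Rxrg. Zfp503 was at 2.97 CPM (35 counts) in the WT cortex and at 18.8 and 15.3 CPM (219 and 174 counts) in HD. At 8 weeks it was at 2.30 CPM in WT and at 4.10 and 5.54 CPM in HD. Both 13-week HD libraries were above the other 4 cortical libraries, and the fold change was 2.52 on the log2 scale (95% interval 1.15 to 3.89, adjusted p = 0.171). From 8 to 13 weeks in HD cortex, Zfp503 differed by 1.82 (SE 0.44, adjusted p = 0.115), and 0 of the 10 regulators passed by edgeR, against 0.591% of genes. DESeq2 called Zfp503 higher in both comparisons (adjusted p = 0.00234, against 1.77% of genes, and 0.00478, against 3.88%). So did edgeR without replicate 2 of the pre-symptomatic striatum (adjusted p = 0.000628, against 5.81% of genes, and 0.000453, against 7.98%). Without replicate 1 the stage comparison in cortex called Zfp503 higher and also Foxp1 lower, at -0.42 (adjusted p = 0.047 by edgeR, against 7.99% of genes). In striatum the stage value of Zfp503 was -0.61 (SE 0.40). Its stage difference in striatum minus that in cortex was -2.42 (SE 0.59, adjusted p = 0.9999 by edgeR). In that test 0 of 14392 genes passed (0% of genes), 519 had an unadjusted p under 0.05, 2 of them regulators, and DESeq2 called 15 (0.104%), with 0 regulators. Without that replicate 2 of 10 passed, against 1.02% of 15009 genes: Zfp503 at -3.03 (adjusted p = 0.00118) and Bcl11b at -1.06 (adjusted p = 0.0445). Choroid plexus markers summed to 67.9 and 3007 CPM in the 13-week HD cortical libraries and to 3.73 CPM in their WT library, and their part in the Zfp503 values was not tested.

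**Figure D4:**
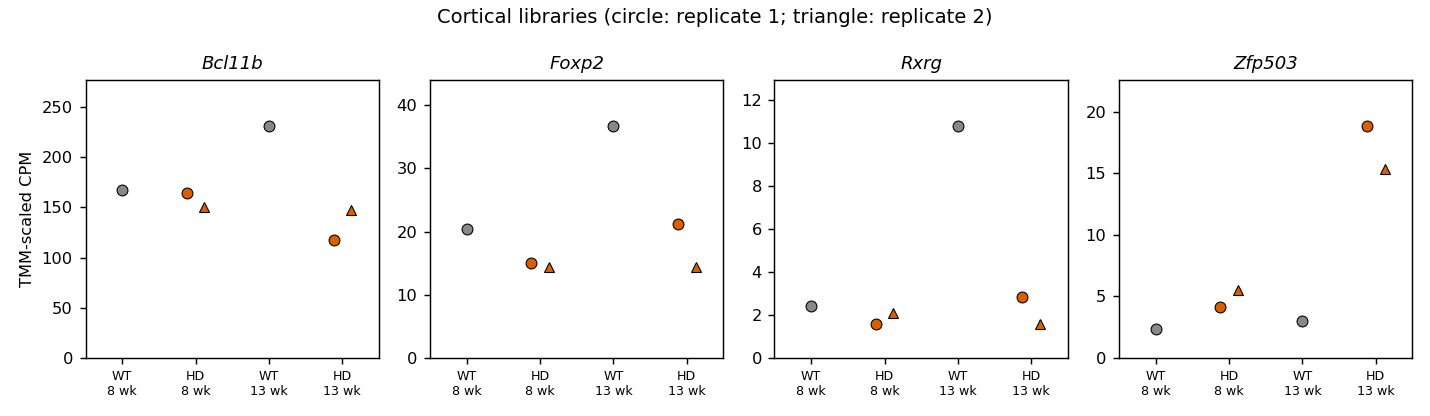
TMM-scaled CPM (y axis, from 0) of Bcl11b, Foxp2, Rxrg and Zfp503 in the 6 cortical libraries, by genotype and age (x axis). Circles are replicate 1, triangles replicate 2, grey WT and orange HD. Zfp503 was at 18.8 and 15.3 CPM in the 13-week HD libraries and at 5.54 CPM or less in the other 4, and Rxrg was at 10.8 CPM in the 13-week WT library and at 2.84 CPM or less in the others.

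Rxrg was at 10.8 CPM (127 counts) in the 13-week WT cortex and at 2.84 and 1.59 CPM (33 and 18 counts) in HD. At 8 weeks it was at 2.38 CPM in WT and at 1.58 and 2.06 CPM in HD. The 13-week WT library alone was high, and the fold change of -2.27 (SE 0.77) had an adjusted p = 0.33 by edgeR and 0.0146 by DESeq2. The effectors summed to 995 CPM in that WT library, to 804 CPM in the 8-week WT cortex and to 472 and 474 CPM in the 13-week HD cortex. Six3 was at 18.1 CPM in it, at 1.96 CPM in the 8-week WT cortex and at 5.16 and 24.4 CPM in the 13-week HD cortex. How much striatum each cortical library held was not tested.

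Foxp2 was at 36.7 CPM in the 13-week WT cortex and at 21.2 and 14.4 CPM in HD (fold change -1.04, SE 0.35, adjusted p = 0.291). Bcl11b, which layer 5 neurons of the cortex also express, was at 231 CPM in WT and at 117 and 148 CPM in HD (-0.80, SE 0.50, adjusted p = 0.619). Without replicate 2 of the pre-symptomatic striatum, Rxrg, Foxp2 and Bcl11b were lower and Zfp503 higher in the 13-week HD cortex (4 of 10 by edgeR, against 5.81% of 15262 genes). Foxp2 was at 20.3 CPM in the 8-week WT cortex and at 15.0 and 14.3 CPM in HD of that age. Bcl11b was at 168 CPM in the 8-week WT cortex and at 165 and 151 CPM in HD. For both genes, as for Rxrg, the 13-week WT library was thus the highest of the cortical libraries. At 8 weeks in cortex, 0 of the 10 passed against WT by edgeR or DESeq2, nor did any at an unadjusted p under 0.05. Over all genes edgeR called 0 of 15337 there (0% of genes), with 1239 at an unadjusted p under 0.05, and DESeq2 called 53 (0.383%).

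With both regions in the fit, HD against WT at 13 weeks gave 0 of 10 regulators past the threshold by edgeR, against 7.36% of 14706 genes, and 10 of 18 effectors lower. The lowest regulators were Rxrg at -1.98 (SE 0.58, adjusted p = 0.0714), Bcl11b at -1.19 (SE 0.37, adjusted p = 0.0861) and Foxp2 at -0.93 (SE 0.33, adjusted p = 0.122), and these 3 with Foxp1 were past an unadjusted p of 0.05. DESeq2 called the first 3 lower (adjusted p = 0.00223, 0.0126 and 0.0498), against 12.2% of genes. When replicate 2 of the pre-symptomatic striatum was left out, edgeR called 4 of 10 lower, against 12.5% of 14620 genes: Rxrg (95% interval -3.19 to -0.80), Bcl11b at -1.17, Meis2 at -0.72 and Foxp1 at -0.70, with adjusted p from 0.0192 to 0.0417. Without replicate 1 it called 3 lower, against 8.45% of 14652 genes: Rxrg at -1.88, Bcl11b at -1.22 and Foxp2 at -0.92, with adjusted p from 0.0105 to 0.0449. With sex as a term Rxrg passed by edgeR, at -2.46 (adjusted p = 0.0295), against 6.68% of genes. These Rxrg values include cortex, where the 13-week WT library was at 10.8 CPM and the others at 2.84 CPM or less. In striatum alone the Rxrg value was -1.45. At 8 weeks 0 of 10 passed, against 2.10% of genes, with none at an unadjusted p under 0.05 and none by DESeq2 (4.87% of genes). Between stages in HD mice 0 of 10 passed, against 6.45% of 13944 genes, with Ebf1 alone at an unadjusted p under 0.05 (0.51, SE 0.21) and none by DESeq2, whereas 6 of 18 effectors were lower. In the stage fit without replicate 2 of the pre-symptomatic striatum, 1 of 10 passed, Foxp1 at -0.67 (adjusted p = 0.00672 by edgeR, against 10.6% of 14300 genes).

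Other regulators of striatal development, 18 listed beside the 10, were also measured. In striatum against cortex 10 of 17 tested were higher and 1 lower (Mef2c, at -2.55), and for HD against WT at 13 weeks in striatum 0 of 17 passed by edgeR, with a median of -0.34, 3 at an unadjusted p under 0.05 and 1 called by DESeq2. Without replicate 2 of the pre-symptomatic striatum 2 were lower, Foxo1 (-1.37, adjusted p = 0.000826) and Mef2c (adjusted p = 0.0184). Among those with the highest striatal level, Six3 was at -0.25, Mef2c at -0.61 and Pbx3 at -0.57. Mef2c, an activity-dependent factor that is high in cortical neurons, was the 1 gene of this list that was lower at 13 weeks with both regions fitted (-0.61, SE 0.15, adjusted p = 0.0284 by edgeR). With sex as a term that call was lost, and 0 of 17 genes of this list passed there. Mef2c was also the 1 gene of the list that was lower between stages in HD mice with both regions (-0.73, adjusted p = 0.00936 by edgeR) and in cortex (-0.90, adjusted p = 0.0485).

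Paralogs of the regulators, 17 genes, were not called in HD against WT at 13 weeks in striatum either (0 of 15 tested by edgeR, 4 at an unadjusted p under 0.05, 0 by DESeq2, median 0.22). Bcl11a was at -0.32, Rxrb at -0.52, Ikzf5 at 0.54 and Zfp703 at 0.93. In striatum against cortex, Meis1, the paralog of Meis2, was higher (2.89), and Bcl11a, Foxp4, Rara and Zfp703 were lower, at -1.53 to -0.45.

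Several of these loci overlap other annotated genes (GENCODE, GRCm38). Rarb is overlapped on the opposite strand by Top2b, a topoisomerase gene, which was at 141 to 174 CPM in striatum, where Rarb was at 22.5 to 118 CPM, and whose 13-week HD libraries were at 146 and 141 CPM against 174 CPM in WT. Foxp1 is overlapped by 4 genes and Foxp2 by 1 on their own strand, and Ebf1 and Ikzf1 by genes on the opposite strand. Whether the counting used strand is not given in the sources used here, so reads of such pairs cannot be told apart.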

How the data were processed

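RNAseq libraries were made from 500 ng of Trizol-extracted total RNA with the Lexogen QuantSeq 3′ kit. The authors deposited a table of raw counts per gene symbol for each of the 12 libraries. The submitters' processing notes name Bowtie2, bedtools and mm10, and versions, annotation and the use of strand are not given in the sources used here. Of 23282 gene rows, 4306 held no count and 44 repeated a symbol, and all rows were kept in library sizes.

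The deposited counts were analysed in R 4.3.3 with edgeR 4.0.16 (TMM scaling, filterByExpr at its default minimum of 10 counts, and the quasi-likelihood test with robust estimation) and Benjamini-Hochberg adjustment over all genes tested, with a threshold of 0.05. Stages were compared over the 8 HD libraries, and genotypes and regions over all 12. For a single region the lone WT library was assumed to vary like the HD libraries, and leaving it out could not be fitted. Other settings were DESeq2 1.42.0, RLE scaling, no filter on low counts, a replicate block, each library left out, and sex as a term, the last chosen after the data were seen. Totals of 8814386 to 12091201 counts, without molecular identifiers, give precision for counting error only. The methods were tested on simulated data.

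All 10 regulators are reported. The named genes of other lists were the 6 effectors and the 4 genes of each further list with the highest striatal CPM, and any gene of a list in which 5 or fewer passed. Some genes that this rule names are not reported here. Rn45s, Top2b, Drd2 and Gpr6 were named outside this rule. The regulators and lists were chosen with earlier results of these data known.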

Additional observations from a re-analysis of the deposited data

Results flagged for a closer look

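For 5 pairs of gene and age, both HD striatal libraries lay below their WT library while both HD cortical libraries lay above theirs. In cortex at 13 weeks, HD was at 18.8 and 15.3 CPM against 2.97 CPM in WT for Zfp503. The values were 5.42 and 9.61 against 4.66 CPM for Rarb and 3.27 and 2.73 against 1.95 CPM for Ikzf1. At 8 weeks they were 5.89 and 6.63 against 2.98 CPM for Rarb and 3.99 and 6.19 against 3.15 CPM for Ebf1. The WT cortical libraries held 23 to 55 counts of these genes, so some of these distances rest on few counts. The share of all genes with this pattern was not counted. In striatum alone, both HD libraries lay below WT for 37.8% of genes tested at 13 weeks and 34.3% at 8 weeks. The pairs were picked by the values tested below, so their unadjusted p-values cannot support a difference between regions. The difference between the regions was then tested by edgeR as an interaction over all 12 libraries, a test added after the values were seen, and 0 genes passed it at either age after adjustment. At 13 weeks the log2 difference of HD against WT in striatum minus that in cortex was -2.79 for Zfp503 (SE 0.76, unadjusted p = 0.0053, adjusted p = 0.99997), -2.30 for Rarb (SE 0.84, unadjusted p = 0.0265, adjusted p = 0.99997) and -2.27 for Ikzf1 (SE 0.98, unadjusted p = 0.0437, adjusted p = 0.99997). At 8 weeks it was -2.08 for Rarb (SE 0.86, unadjusted p = 0.0435, adjusted p = 0.871) and -1.09 for Ebf1 (SE 0.56, unadjusted p = 0.0844, adjusted p = 0.886). The 8-week values include replicate 2 of the pre-symptomatic HD striatum, which stood apart from its partner, and each WT value is that of 1 library.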

How the results depend on the processing

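Of 1550 values of single regulators under other settings, 1494 kept their side of the threshold and their direction where called, 55 became called and 1 changed sign, Meis2 between stages in striatum without replicate 1 of the pre-symptomatic HD striatum (0.89). Without replicate 2 that value was -0.82. A further 57 uncalled values took another sign. In striatum against cortex, 9 regulators and 18 effectors passed under every setting, and 2043 to 3709 genes when each library was left out. In the other comparisons DESeq2, no filter and leaving out a library moved most of the counts. The cause was not tested.

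By DESeq2 the genes past the threshold were 1680 between stages in both regions (900 by edgeR), 447 in striatum (23), 547 in cortex (85) and 15 for the difference between regions (0). For HD against WT they were 1794 at 13 weeks (1082) and 674 at 8 weeks (309) with both regions, 516 in striatum (111) and 214 in cortex (17) at 13 weeks, and 256 in striatum (35) and 53 in cortex (0) at 8 weeks. Regulators past it by DESeq2 were 1 between stages in cortex, and at 13 weeks 3 with both regions, 2 in striatum and 2 in cortex (0 in each by edgeR). Effectors past it by DESeq2 were 13, 4 and 3 between stages in striatum, in cortex and for their difference (0 in each by edgeR), 15 and 6 at 13 weeks in striatum and cortex (3 and 0), and 1 at 8 weeks in striatum (0). With no filter, genes past the threshold were 163 and 251 between stages in striatum and cortex, 1 for their difference, 306 and 84 at 13 weeks and 100 and 10 at 8 weeks, with 1 effector between stages in striatum and 6 at 13 weeks with both regions.

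With 1 library left out, genes past the threshold ranged from 211 to 1518 between stages in both regions, 0 to 1083 in striatum, 0 to 1202 in cortex and 0 to 168 for the difference. For HD against WT with both regions they ranged from 29 to 1834 at 13 weeks and 0 to 444 at 8 weeks, and by region from 1 to 1469 in striatum and 0 to 889 in cortex at 13 weeks, and 0 to 1981 and 0 to 164 at 8 weeks. Each of these highest counts came without replicate 1 or 2 of the pre-symptomatic HD striatum. The lowest count at 13 weeks with both regions came without the WT striatal library of that age. Effectors past the threshold there were also at their lowest without it. Regulators past it ranged from 0 to 1, 0 to 7, 0 to 2 and 0 to 2 in the 4 stage comparisons in that order, and from 0 to 4, 0 to 6 and 0 to 4 at 13 weeks with both regions, in striatum and in cortex. At 8 weeks they ranged from 0 to 6 in striatum, with 0 in cortex or with both regions. Effectors ranged from 1 to 9, 0 to 17, 0 to 9 and 0 to 8 between stages, 0 to 14, 0 to 17 and 0 to 12 at 13 weeks, and 0 to 1, 0 to 12 and 0 to 1 at 8 weeks.

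Libraries with the same replicate number did not deviate together throughout (correlations from 0.0049 to 0.172 over 6 pairs of HD groups), so the numbers were not taken as pairs. A replicate block changed no call of a regulator, gave 36 genes between stages in striatum and 0 at 8 weeks in striatum (35), and 6 effectors at 13 weeks with both regions (10). Sex as a term gave 36 genes between stages in striatum, 7 at 13 weeks in cortex and 0 at 8 weeks in striatum. It gave 1 regulator at 13 weeks with both regions, Rxrg. Effectors past the threshold with that term were 5 between stages with both regions (6). At 13 weeks they were 8 with both regions (10) and 2 in striatum (3). In HD libraries sex followed the replicate number, so between stages the sex term and the replicate block were the same fit. Low counts limit Ikzf1, and Isl1 in cortex, and with 1 WT library per region and age, variation between WT mice was not measured.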
